A study of Mus musculus with 6 samples.

Results

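Basal epithelial cells of the mouse prostate were compared between the ducts nearest the urethra (proximal) and those toward the gland tips (distal) for 9 genes that move potassium, urea, water and sodium across the cell membrane. The genes are the potassium channels Kcnn4, Kcnk1 and Kcnq1, the urea transporter Slc14a1, the aquaporins Aqp3 and Aqp5, the sodium pump beta subunits Atp1b1 and Atp1b3, and the pump-associated protein Fxyd3. They were taken from 25273 genes with a value, by name, with their levels in these same libraries already known. The contrast of proximal with distal cells took part in that choice, so the 9 genes are described by their levels and carry no test. All 9 were matched to deposited transcripts, and 7 averaged 1 FPKM or more across libraries, the level needed to enter the fit across genes, which Slc14a1 reached only through the proximal libraries. FPKM divides a transcript's sequenced fragments by its length and by the size of the library, and so allows levels to be compared between genes.

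The series holds 6 RNA sequencing libraries, 3 from distal and 3 from proximal ducts, of C57BL/6 mice between 8 and 12 weeks old. Cells were sorted by antibody from dissociated prostate, but the labels do not name the antibodies or gates that define a basal cell, their culture protocol is one for stromal cells, and they do not say whether each library came from its own animal. The p-values below therefore measure variation among these libraries only, part or all of which may be technical. The deposited intervals implied 20700000 to 26600000 fragments per library, and 9910 to 10301 genes reached 1 FPKM. Defining basal markers were present in every library: Krt14, a basal keratin, lay between 2120 and 3400 FPKM and Trp63, the basal lineage factor, between 27.8 and 74.7 FPKM. Basal markers were not equal between the groups. Of 12 tested, 6 were higher in proximal libraries, 0 were lower and 6 did not pass (limma, adjusted p under 0.05), beside 4.52% higher among all genes tested. Their sums were 8060 to 9780 FPKM in distal and 9550 to 9710 FPKM in proximal libraries. Luminal keratin Krt18 was also present, at up to 1630 FPKM.

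The sodium pump exports sodium and imports potassium, and it consists of a catalytic alpha subunit, a beta subunit that carries it to the membrane, and often a small FXYD protein that tunes its kinetics. Potassium channels let the imported potassium leave again, which sets the membrane voltage that drives other ion movements. Aquaporins and urea transporters are pores for water, glycerol and urea, and are well known from the kidney and the lining of the urinary tract. The mouse prostate secretes a fluid whose salts and water pass across an epithelium that includes basal cells.

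The 250 bases upstream of the RefSeq start site are shown for 3 of the genes. They were chosen because Kcnn4 and Atp1b1 stood higher in all proximal libraries, while Aqp3, at a similar level in those libraries, had overlapping groups. Each start coincides with the start of the deposited transcript. RefSeq promoter entries were found for 7 of the 9 genes, on GRCm38.p6, the assembly behind mm10. The sequences run 5′ to 3′ on the gene's strand, and capitals mark matches on either strand to 5 short motifs. The TATA box was searched as TATAAA and the GC box as GGGCGG. The AP-1 site was searched as TGANTCA, where N is any base. The CCAAT box and the CACCC box were searched by the letters in their names.
Kcnn4 (chr7:24370013-24370262, plus strand): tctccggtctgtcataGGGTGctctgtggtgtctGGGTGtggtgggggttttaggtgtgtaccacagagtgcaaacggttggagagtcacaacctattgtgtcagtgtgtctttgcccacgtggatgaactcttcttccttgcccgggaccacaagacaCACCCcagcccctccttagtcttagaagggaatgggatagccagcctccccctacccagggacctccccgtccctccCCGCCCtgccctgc
Atp1b1 (chr1:164458356-164458605, minus strand): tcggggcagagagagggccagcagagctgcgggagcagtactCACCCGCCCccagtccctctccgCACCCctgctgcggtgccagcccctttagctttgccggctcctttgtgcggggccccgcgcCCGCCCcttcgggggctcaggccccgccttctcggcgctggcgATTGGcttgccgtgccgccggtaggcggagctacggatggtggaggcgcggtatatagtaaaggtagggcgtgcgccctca
Aqp3 (chr4:41098184-41098433, minus strand): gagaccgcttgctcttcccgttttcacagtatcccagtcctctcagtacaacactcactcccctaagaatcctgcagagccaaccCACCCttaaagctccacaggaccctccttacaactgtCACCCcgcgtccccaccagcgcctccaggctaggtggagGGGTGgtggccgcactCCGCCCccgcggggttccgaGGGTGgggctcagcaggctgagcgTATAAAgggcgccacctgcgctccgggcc

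All 3 windows held a GC box, as did 32.7% of the 32851 promoter windows of the same length in the table, and all 3 held CACCC, as did 52.0%. A TATA box occurred in the Aqp3 window alone among the 3, at positions -29 to -24 counted from the start site (12.4% of all windows). A CCAAT box occurred in the Atp1b1 window alone among the 3, at -81 to -77 (33.8% of all windows). None of the 3 held the AP-1 letters, which 6.75% of windows held. In the Atp1b1 window the CACCC match at -208 to -204 and the GC box at -205 to -200 share letters. These matches are descriptions of the letters and say nothing of factors bound there.

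The 9 genes fell into 3 kinds of pattern. Kcnn4, Slc14a1, Atp1b1 and Aqp5 were higher in each proximal library than in any distal library. Kcnk1, Aqp3, Atp1b3 and Fxyd3 had overlapping groups, and Kcnq1 was listed at 0 throughout. Of the 7 genes in the fit, 3 had groups that did not overlap, all with proximal higher. For all 10255 genes in the fit, groups did not overlap in 28.8%, with proximal higher in 15.8% and lower in 13.0%, and 7.02% passed limma's test in either direction. Since these genes were picked with the contrast in view, the count is not read against that background.

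**Figure D1:**
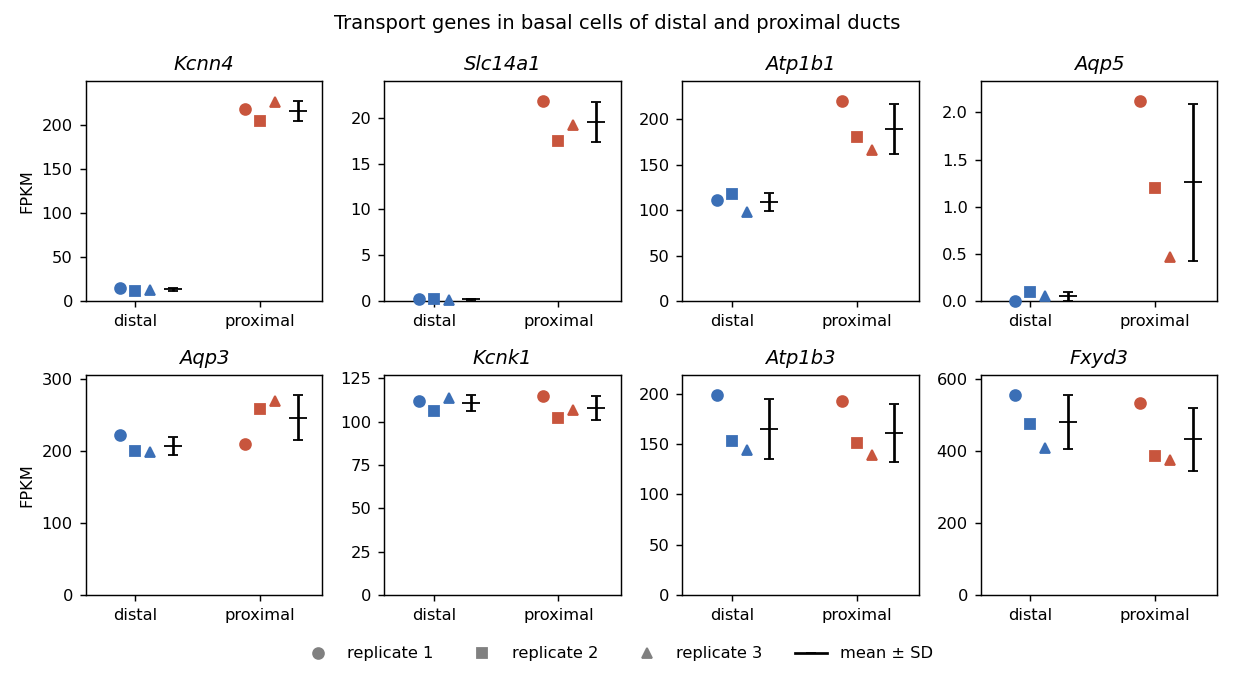
FPKM (linear axes from 0) of 8 transport genes in each of the 3 distal (blue) and 3 proximal (red) libraries, with symbols for the replicate number and the group mean ± SD in black. Kcnn4 lies at 204 to 226 FPKM in proximal and 11.9 to 15.1 FPKM in distal libraries, while the groups of the 4 genes in the lower row overlap.

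Among the potassium channels, Kcnn4 differed by far more than its replicate spread. Kcnn4 encodes the intermediate-conductance calcium-activated channel, which opens when calmodulin bound to it senses calcium. Distal libraries held 15.1, 11.9 and 13.1 FPKM of it, and proximal libraries held 218, 204 and 226 FPKM. The lowest proximal library thus stood far above the highest distal one, and the spread within either group was small. The means were 13.4 ± 1.59 and 216 ± 11.1 FPKM (SD, n = 3), a 16.2-fold ratio and a difference of 3.92 ± 0.11 (SE) on the log2(FPKM + 1) scale. Kcnn4 lies on chromosome 7 (24370263 to 24386690, mm10, plus strand). Of its 3 deposited transcripts, the one of 1952 bases carried the whole level in 5 libraries. In distal replicate 3 a transcript of 2037 bases with the same ends held 2.11 FPKM beside 10.95 FPKM for the main one.

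Kcnn4 is also known as a channel of lymphocytes and erythrocytes, so markers of blood cells are given beside it. Markers of endothelial cells and fibroblasts, some of them higher in proximal libraries, are given further below. The erythroid list summed to 0.400 to 5.31 FPKM in distal and 4.45 to 11.2 FPKM in proximal libraries, and 0 of its 3 tested genes passed (limma). Among 16 immune markers 3 could be tested and none passed, and their summed level was 15.1 to 16.1 FPKM in distal and 12.3 to 16.3 FPKM in proximal libraries. Cd68 had the highest level of the immune list, at up to 10.2 FPKM, and 11 of the 16 markers stayed below 1 FPKM in every library. Among the low ones, the pan-leukocyte gene Ptprc was at most 0.0436 FPKM in any library, and the T cell receptor chain gene Cd3g was listed at 0 in all 6. The ranges of the immune sums overlapped, as did those of the erythroid sums, and the part of blood cells in the level of Kcnn4 was not tested.

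Kcnk1, a tandem-pore-domain channel that passes a background potassium current, was the potassium channel with the highest level in distal cells among the genes examined. It stood at 112, 106 and 114 FPKM in distal and at 115, 102 and 107 FPKM in proximal libraries. The groups overlapped, with means of 111 ± 4.53 and 108 ± 6.73 FPKM (SD, n = 3) and a log2 difference of -0.03 ± 0.10 (SE). Kcnk1 lies on chromosome 8 (125995170 to 126030685, mm10, plus strand). The ratio of Kcnn4 to Kcnk1 was 0.121 ± 0.0119 in distal and 2.00 ± 0.111 in proximal libraries (SD, n = 3). Per length, then, Kcnk1 was the more abundant of these channels in distal cells and Kcnn4 in proximal cells.

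Kcnq1 encodes a voltage-gated channel that works with KCNE subunits in secretory epithelia. Its 4 deposited transcripts were listed at 0 in all 6 libraries. The gene spans chromosome 7 from 143106362 to 143427042 (mm10, plus strand), and its span holds the long antisense transcript Kcnq1ot1, of 83437 bases. Kcnq1ot1 was listed at 1.23, 1.07 and 0.983 FPKM in distal and at 1.33, 1.16 and 1.01 FPKM in proximal libraries (log2 fold change 0.05 ± 0.14 SE, limma, adjusted p = 0.879). The Kcnq1 transcripts had a deposited status of OK. Their upper limits were at most 0.0307 FPKM for the transcript of 3029 bases and at most 0.629 FPKM for that of 333 bases. Nme7 and Lgi4, whose spans touch those of Atp1b1 and Fxyd3, had transcripts listed at 0 in every library too. Whether a listed 0 was a failed estimate was not tested. No ratio is given for Kcnq1.

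Slc14a1 encodes the urea transporter UT-B, a facilitative urea pore of erythrocytes, kidney vessels and urothelium. It was barely detected in distal libraries, at 0.204, 0.268 and 0.197 FPKM, and reached 21.8, 17.4 and 19.2 FPKM in proximal libraries. Every proximal library was thus far above every distal one. The means of 0.223 ± 0.0394 and 19.5 ± 2.21 FPKM (SD, n = 3) differ 87.4-fold as FPKM. The log2 difference was 4.06 ± 0.13 (SE) with 1 FPKM added, and depended on that addition, with 5.92 for 0.1 FPKM and 2.23 for 5 FPKM. Slc14a1 lies on chromosome 18 (78100091 to 78142119, mm10, minus strand).

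The deposited transcripts of Slc14a1 differed between the groups. In all 3 proximal libraries the whole level was assigned to a transcript of 3665 bases whose 5′ end lies at 78123426. In distal replicates 1 and 2 it was assigned to a transcript of 3605 bases that starts further upstream, at 78142119, with 0.204 and 0.268 FPKM. Distal replicate 3 held 0.148 FPKM of a transcript of 3870 bases, which has the inner start, and 0.0493 FPKM of the one with the upstream start. The distal values rest on few reads: mean coverage of the upstream-start transcript was 0.911, 1.47 and 0.236 reads per base, against 79.9 to 110 for the main transcript in proximal libraries. At that coverage the division of distal reads between transcripts is uncertain, and the transcript with the upstream start had a deposited upper limit of at most 0.0251 FPKM in proximal libraries.

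**Figure D2:**
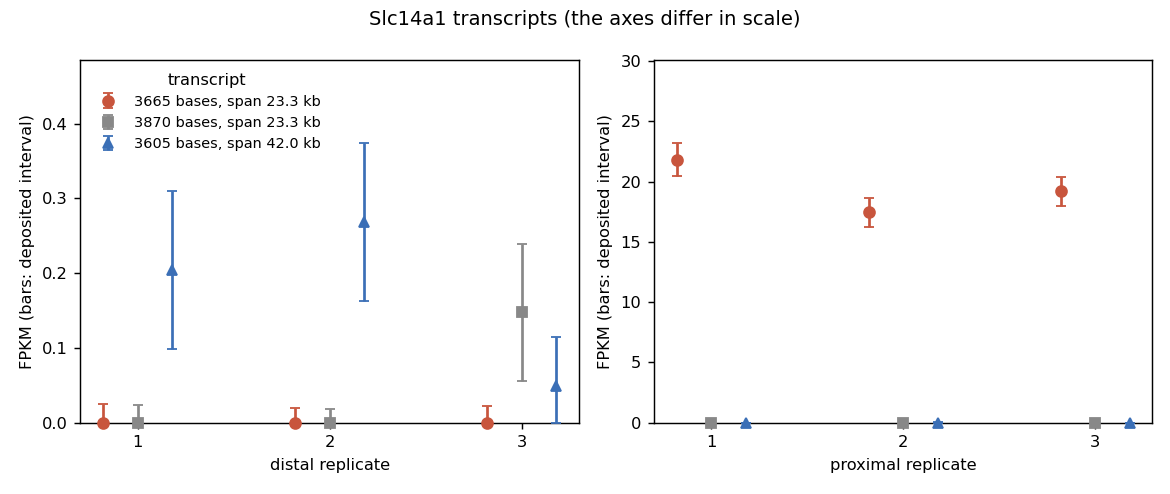
FPKM of the 3 deposited Slc14a1 transcripts in each library, with distal libraries on the left and proximal libraries on the right on separate linear axes. Symbols stand for transcripts, bars for the deposited interval. The proximal level lies wholly in the transcript of 3665 bases at 17.4 to 21.8 FPKM, whereas distal levels stay below 0.3 FPKM and lie mostly in the transcript with the longer span.

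Markers of other cells that make UT-B are given beside these values. Of the 9 erythroid markers, whose sums are given above, the globin gene Hba-a1 had the highest level, at 0.0593, 1.04 and 1.83 FPKM in distal and 1.56, 4.97 and 1.99 FPKM in proximal libraries, and did not pass (limma, adjusted p = 0.207). The erythrocyte membrane genes Slc4a1 and Epb42 were listed at 0 in all 3 proximal libraries and at no more than 0.0544 FPKM in distal ones. Of 9 matched urothelial markers 5 could be tested, of which 2 were higher, 1 was lower and 2 did not pass (limma, adjusted p under 0.05). Their sum was 24.7 to 28.2 FPKM in distal and 51.6 to 72.5 FPKM in proximal libraries. The umbrella-cell uroplakin gene Upk3a was listed at 0 in all 6 libraries. Krt13, a keratin of stratified mucosa and urothelium, had the highest level in this list and was 1 of the 2 higher genes. It lay at 7.06 to 7.64 FPKM in distal libraries and rose to between 31.3 and 38.4 FPKM in proximal ones (limma, adjusted p = 9.49e-05). A large part of the proximal sum of the list was thus Krt13 alone. The part of such cells in the level of Slc14a1 was not tested.

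Aqp3, an aquaglyceroporin of basolateral membranes in stratified epithelia and urothelium, was the main aquaporin in both groups. It stood at 222, 200 and 199 FPKM in distal and at 210, 258 and 269 FPKM in proximal libraries. Proximal replicate 1 lay within the distal range and the other proximal libraries above it, so the groups overlapped. The means were 207 ± 12.7 and 246 ± 31.6 FPKM (SD, n = 3), with a log2 difference of 0.24 ± 0.13 (SE). Without both libraries numbered 1, the log2 difference was 0.40. Aqp3 lies on chromosome 4 (41092722 to 41098183, mm10, minus strand).

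Aqp5, the apical water channel of salivary and other glands, was found at low level in proximal cells. It was listed at 0, 0.101 and 0.0584 FPKM in distal and stood at 2.12, 1.20 and 0.468 FPKM in proximal libraries. The groups did not overlap, but the proximal libraries differed widely among themselves, with 1.26 ± 0.828 FPKM (SD, n = 3). The deposited interval of the main transcript in the lowest proximal library ran from 0.239 to 0.698 FPKM, above the highest upper limit of a single Aqp5 transcript in a distal library, 0.181 FPKM. Its mean over all libraries was below 1 FPKM, so it did not enter the fit, and the ratio of its level to that of Aqp3 was at most 0.0101 in any library. Aqp5 lies on chromosome 15 (99590782 to 99594829, mm10, plus strand).

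Markers of proximal luminal progenitors moved with these genes, while other lists of luminal markers were mixed. Of 10 proximal luminal progenitor markers 8 were higher and 2 did not pass (limma, adjusted p under 0.05), with sums of 964 to 1030 FPKM in distal and 1850 to 2140 FPKM in proximal libraries. The general luminal list had 12 tested genes, of which 3 passed as higher and 2 as lower while 7 did not pass, with sums of 2480 to 3270 and 3440 to 3670 FPKM. Of 8 tested prostate and seminal vesicle secretory markers 1 was higher, 1 was lower and 6 did not pass (limma, adjusted p under 0.05). Their median log2 fold change was 2.55, but the list summed to 1690 to 2240 FPKM in distal and 1060 to 1400 FPKM in proximal libraries. In bulk libraries, more cells of a type cannot be told apart from more RNA per cell, and the part that luminal cells carried through the sort had in the levels of Aqp5, Slc14a1, Kcnn4 or Atp1b1 was not tested.

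The sodium pump beta subunits Atp1b1 and Atp1b3 differed in pattern, with only Atp1b1 higher in all proximal libraries. Atp1b1, the beta subunit usual in kidney and other transporting epithelia, was at 111, 118 and 98.3 FPKM in distal and at 220, 181 and 166 FPKM in proximal libraries. All proximal libraries stood above all distal ones, with means of 109 ± 10.1 and 189 ± 27.6 FPKM (SD, n = 3), a 1.73-fold ratio and a log2 difference of 0.78 ± 0.13 (SE). Atp1b3, an alternative beta subunit, was at 199, 153 and 144 FPKM in distal and at 193, 151 and 139 FPKM in proximal libraries. Its groups overlapped almost wholly, with a log2 difference of -0.04 ± 0.17 (SE). Atp1b1 lies on chromosome 1 (164437109 to 164458355) and Atp1b3 on chromosome 9 (96332655 to 96364442), both on the minus strand of mm10.

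Within a library the ratio of Atp1b1 to Atp1b3 was 0.560, 0.774 and 0.681 in distal and 1.14, 1.20 and 1.20 in proximal cells. Atp1b3 thus exceeded Atp1b1 in each distal library, and the reverse held in each proximal library. The means were 0.672 ± 0.107 and 1.18 ± 0.0361 (SD, n = 3). A ratio within a library does not depend on the scaling between libraries.

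**Figure D3:**
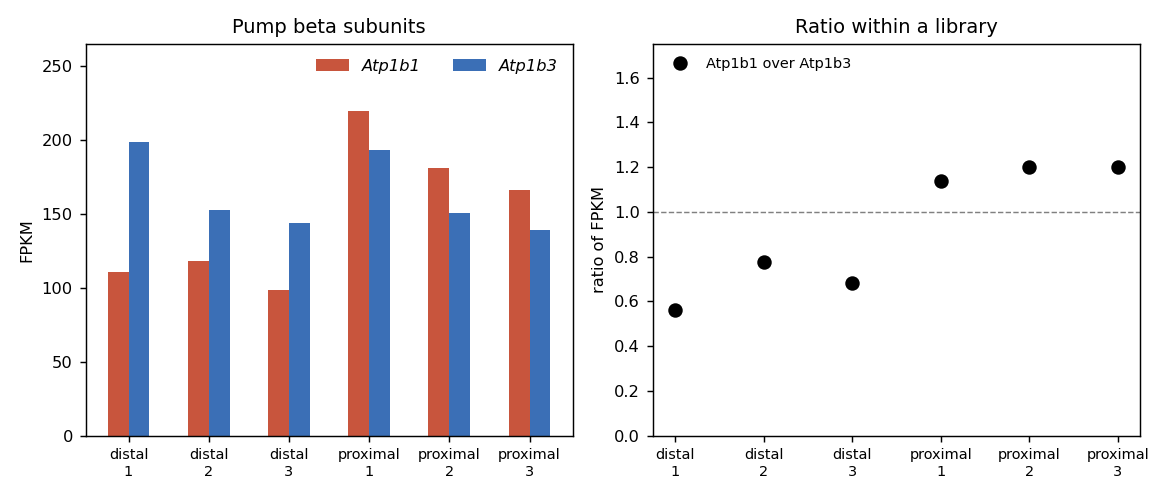
Left, FPKM of the pump subunits Atp1b1 and Atp1b3 in each library, as bars from 0. Right, the ratio of Atp1b1 to Atp1b3 within each library, with a dashed line at 1: it lies at 0.560 to 0.774 in distal and at 1.14 to 1.20 in proximal libraries.

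Fxyd3, a FXYD protein of epithelia that associates with the pump, had the highest level of the 9 genes in both groups. It stood at 557, 475 and 409 FPKM in distal and at 534, 387 and 377 FPKM in proximal libraries. The groups overlapped, with means of 481 ± 74.3 and 433 ± 88.0 FPKM (SD, n = 3) and a log2 difference of -0.16 ± 0.18 (SE). The transcript of 524 bases carried all of it, and Fxyd3 lies on chromosome 7 (31068172 to 31076704, mm10, minus strand).

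By level per length, the order in distal cells was Fxyd3, Aqp3, Atp1b3, Kcnk1, Atp1b1, Kcnn4, Slc14a1, Aqp5 and Kcnq1. Kcnk1 and Atp1b1 did not differ beyond their spread there. In proximal cells the order was Fxyd3, Aqp3, Kcnn4, Atp1b1, Atp1b3, Kcnk1, Slc14a1, Aqp5 and Kcnq1. There the ranges of Aqp3 and Kcnn4, of Kcnn4 and Atp1b1, and of Atp1b1 and Atp1b3 overlapped. Kcnn4 thus stood among the pump subunits and Aqp3 in proximal cells, and below all of them in distal cells.

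Within each group the libraries were not equal. Atp1b3 in replicate 1 was higher than in the other libraries of its group by 0.42 in distal and 0.41 in proximal cells on the log2 scale, and Fxyd3 by 0.34 and 0.48. These were the 2 of the 8 detected genes with replicate 1 highest in both groups, a pattern that 24.9% of all tested genes had. Aqp3 went the other way in proximal cells, where replicate 1 was lower by 0.33. For Kcnn4, Slc14a1 and Atp1b1 the deviations of replicate 1, at most 0.34 on the log2 scale, were smaller than the difference between the groups.

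**Figure D4:**
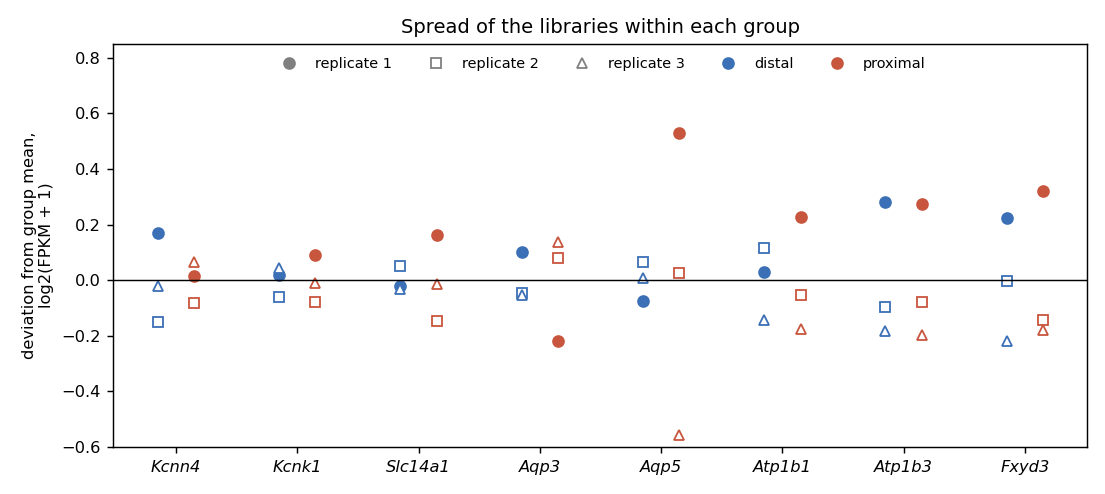
Deviation of each library from its group mean on the log2(FPKM + 1) scale, for 8 transport genes, with distal libraries in blue and proximal libraries in red and replicate 1 as filled circles. Replicate 1 is highest in both groups for Atp1b3 and Fxyd3, and Aqp5 spreads most.

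The wider families were examined as 10 lists of related genes, written out from family and pathway membership without the 9 genes above. Of 185 listed genes 182 were matched and 66 were tested. Of these, 11 were higher in proximal cells, none was lower and 55 did not pass (limma, adjusted p under 0.05). The 11 make up 16.7% of the tested list genes, beside 4.52% higher and 2.50% lower among all genes tested. The lists were chosen with earlier results of these data known, so this share is not read as an excess over that background. At an unadjusted p under 0.05, limma gave 20 higher and 4 lower. The median log2 fold change was 0.16, beside -0.01 over all genes tested. The filter let 3 of the 66 genes in only through their proximal level, since their distal mean was below 1 FPKM, and 2 of these, Kcna1 and Lrrc8b, were among the 11. Of the other 63 genes, 9 were higher (14.3%). The number of higher genes was 5 without distal replicate 2, 6 without distal replicate 3, 4 without proximal replicate 2 and 6 without proximal replicate 3, and 4, 5, 4 and 6 of these were among the 11. Without distal replicate 1, limma passed 15 as higher and 5 as lower. Fxyd4, Fxyd1, Kcne4 and Hspa4l were called under all 16 alternative settings.

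**Figure D5:**
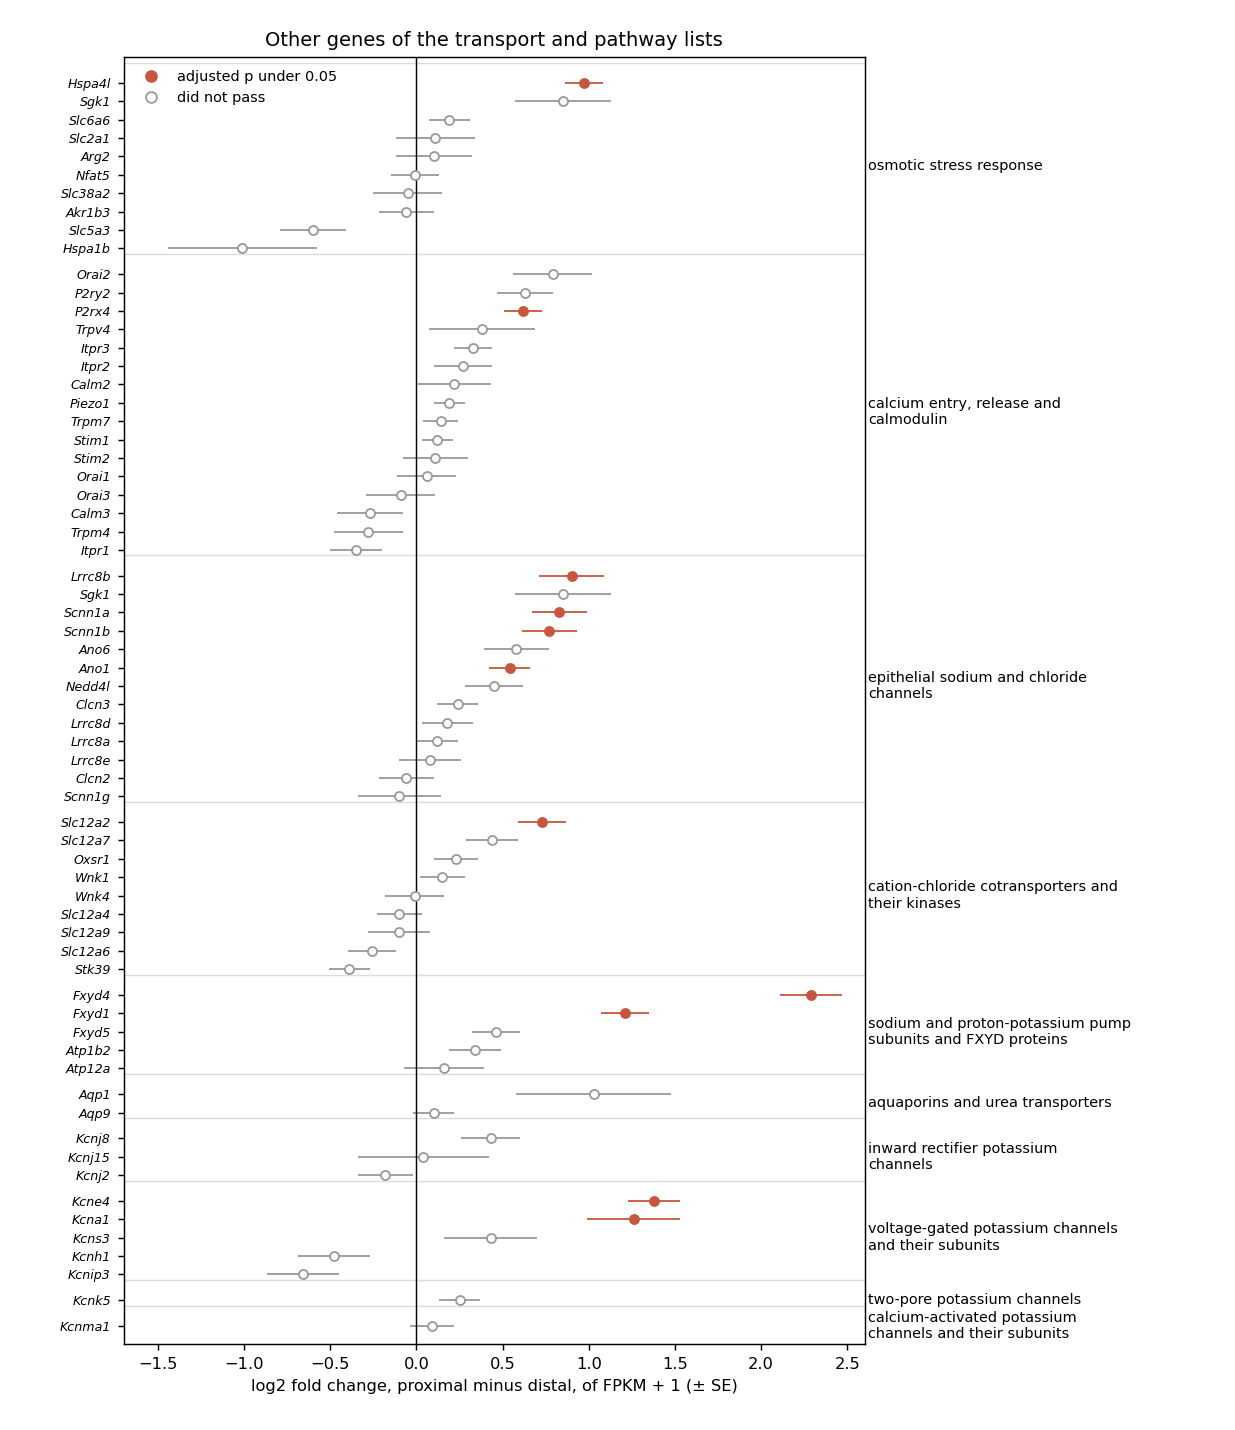
Log2 fold change of FPKM + 1, proximal minus distal, with SE bars, for 64 of the 66 tested genes of the 10 lists, grouped by list (Sgk1 stands in 2 of them). Filled red points passed the test and open grey points did not; the 11 called genes all lie to the right of 0.

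Among sodium pump genes and FXYD proteins, 2 of 6 tested genes were higher and 4 did not pass. Fxyd4, which raises the pump's affinity for sodium and is known from kidney collecting duct and colon, was at 0.967, 1.27 and 1.38 FPKM in distal and at 13.0, 8.47 and 8.42 FPKM in proximal libraries. It rose by 2.29 ± 0.18 on the log2 scale (SE, limma, adjusted p = 0.000555), the largest increase among the tested genes of the 10 lists. Fxyd1, or phospholemman, rose from 5.48, 5.51 and 6.19 to 14.5, 17.3 and 12.3 FPKM (log2 fold change 1.21 ± 0.14 SE, limma, adjusted p = 0.00284). Fxyd5 had a log2 fold change of 0.46 and did not pass (limma, adjusted p = 0.0955). Fxyd6, with means of 1.27 FPKM in distal and 0.645 FPKM in proximal libraries, was lower in each proximal library than in any distal one. It was below the filter and was not tested. The FXYD proteins thus differed from one another: Fxyd4 and Fxyd1 were higher in proximal cells, while the far more abundant Fxyd3 overlapped between the groups.

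Of the 49 matched voltage-gated potassium channel genes and subunits, 5 were tested, 2 were higher and 3 did not pass. Kcne4, an inhibitory subunit of Kcnq1 and other channels, averaged 9.26 ± 1.92 FPKM in distal and 25.3 ± 0.644 FPKM in proximal libraries (SD, n = 3), an increase of 1.38 ± 0.15 on the log2 scale (SE; limma, adjusted p = 0.00234). Kcna1, a Shaker-type channel, was at 0.276 to 0.462 FPKM in distal and at 2.39, 3.71 and 1.16 FPKM in proximal libraries, and so passed the filter only through the proximal group (log2 fold change 1.26 ± 0.27 SE, limma, adjusted p = 0.0316). In 9 of the 16 settings its call was lost or it was not tested, the latter also with closely matched transcripts only. It lost the call without distal replicate 2, without distal replicate 3 and without proximal replicate 1 (limma, adjusted p up to 0.126), at log2 fold changes of 1.21, 1.25 and 1.23, and was below the filter without proximal replicate 2. Kcnip3, which binds other voltage-gated channels, had a log2 fold change of -0.66 and did not pass (limma, adjusted p = 0.104), but passed without distal replicate 1 (limma, adjusted p = 0.00955).

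Few other potassium channels reached the level needed for a test. Kcnma1, the large-conductance calcium-activated channel, was the only other tested gene of its list, with 25.8 ± 2.40 FPKM in distal libraries and 27.7 ± 3.74 FPKM in proximal ones (SD, n = 3), and did not pass (limma, adjusted p = 0.707). The closest relatives of Kcnn4, the small-conductance channels Kcnn1, Kcnn2 and Kcnn3, had group means of at most 0.248 FPKM. Kcnk5 was the single tested tandem-pore relative of Kcnk1, with a log2 fold change of 0.25 (limma, adjusted p = 0.249). Of 3 tested inward rectifiers none passed, among them Kcnj2 and Kcnj15 (limma, adjusted p = 0.534 and 0.971).

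Besides Aqp3, the aquaporins Aqp9 and Aqp1 were tested and neither passed. Aqp9 averaged 6.85 ± 0.679 FPKM in distal libraries and 7.43 ± 0.555 FPKM in proximal ones (SD, n = 3; limma, adjusted p = 0.651). Aqp1, the water channel of endothelium and erythrocytes, was at 5.92, 0.979 and 1.77 FPKM in distal and 9.23, 5.12 and 4.12 FPKM in proximal libraries (log2 fold change 1.03 ± 0.45 SE, limma, adjusted p = 0.215), and passed without distal replicate 1 (limma, adjusted p = 0.026). The other urea transporter gene, Slc14a2, had group means of 0.0332 and 0.0318 FPKM.

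Partners of the pump in salt transport were also higher in part. Slc12a2, the sodium-potassium-chloride cotransporter that loads epithelial cells with chloride, rose from a range of 14.2 to 15.9 FPKM to a mean of 25.9 ± 4.23 FPKM (SD, n = 3; log2 fold change 0.73 ± 0.14 SE, limma, adjusted p = 0.0193). It was the 1 higher gene of 9 tested in its list, and Slc12a4, the potassium-chloride cotransporter with the highest level in it, did not pass (limma, adjusted p = 0.668). Among epithelial sodium and chloride channels 4 of 13 tested genes were higher and 9 did not pass. Ano1, a calcium-activated chloride channel, rose from 42.5 ± 4.91 to 62.1 ± 3.76 FPKM (SD, n = 3; limma, adjusted p = 0.0316). Scnn1a and Scnn1b, the alpha and beta subunits of the epithelial sodium channel, rose by 0.83 ± 0.16 and 0.77 ± 0.16 on the log2 scale (SE, limma, adjusted p = 0.0213 and 0.0316). Scnn1g, the gamma subunit, did not pass (log2 fold change -0.10, limma, adjusted p = 0.851). Lrrc8b, a subunit of volume-regulated anion channels, was at 0.625 to 0.680 FPKM in distal and 1.36 to 2.72 FPKM in proximal libraries, and also passed the filter only through the proximal group (log2 fold change 0.90 ± 0.19 SE, limma, adjusted p = 0.031).

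Omitting a library ended most of these calls with little change in the differences. The calls of Ano1, Scnn1a, Scnn1b and Lrrc8b did not hold once distal replicate 2, distal replicate 3, proximal replicate 2 or proximal replicate 3 was omitted, and that of Scnn1b also failed without proximal replicate 1 (limma, adjusted p up to 0.138, 0.0972, 0.113 and 0.135). Over the 6 omissions their log2 fold changes ranged from 0.44 to 0.59, from 0.71 to 0.91, from 0.65 to 0.86 and from 0.77 to 1.1. The calls of Ano1, Scnn1a, Scnn1b and Lrrc8b were also lost with no filter on low values. At a filter of 5 FPKM, Scnn1a, Scnn1b and Lrrc8b were not tested. With closely matched transcripts only, Lrrc8b and Kcna1 were not tested, so their levels rest at least in part on looser matches to the gene. The call of Slc12a2 was lost without distal replicate 2 or 3 or proximal replicate 2 (limma, adjusted p up to 0.0989), where its log2 fold change was 0.73, 0.70 and 0.68. Sgk1, a kinase that raises sodium channel activity at the membrane, stood at 130, 110 and 97.2 FPKM in distal and at 326, 174 and 144 FPKM in proximal libraries, did not pass (limma, adjusted p = 0.114), and passed without both libraries numbered 1 (limma, adjusted p = 0.0202).

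Endothelial cells, fibroblasts and cells of nerves, some of which are known to express Fxyd1, Kcna1 or Aqp1, also had some markers that were higher in proximal libraries. Of 10 tested endothelial markers 6 were higher and 4 did not pass, with sums of 7.50 to 23.6 FPKM in distal and 33.7 to 46.6 FPKM in proximal libraries. Of 5 tested nerve and glia markers 3 were higher and 2 did not pass, with sums of 25.5 to 32.2 and 37.4 to 57.0 FPKM. Of 7 tested fibroblast markers 5 were higher and 2 did not pass, although their sum, most of it Dcn, was 769 to 813 FPKM in distal and 685 to 756 FPKM in proximal libraries. Of 6 tested smooth muscle markers, limma passed 0. The part of these cells in the levels of Kcnn4, Fxyd1, Kcne4, Kcna1, Aqp1 and Slc14a1 was not tested.

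Over the 6 libraries, the protein-coding genes whose log2(FPKM + 1) followed that of Kcnn4 closely included Irf5 and Ank, with Pearson's r of 0.9987 and 0.9979. For Slc14a1 the closest were Msmb, Irf5 and Golim4, with r of 0.9995, 0.9992 and 0.9979. The points are 6 libraries in 2 groups, so the values mostly restate the difference between the groups. Ank stood at 5.99 to 6.45 FPKM in distal libraries and at 14.3 to 15.2 FPKM in proximal ones, and Golim4 at 15.5 to 16.0 and 25.0 to 25.8 FPKM. Irf5 was listed at 0 in every distal library and at 9.03 to 9.28 FPKM in proximal ones. Msmb, which is in the secretory marker list, was at 0, 0.108 and 0.122 FPKM in distal and at 10.4, 8.38 and 9.54 FPKM in proximal libraries. Irf5 and Msmb thus passed the filter only through the proximal group.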

How the data were processed

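Total RNA of sorted prostate basal cells was primed with random and oligo(dT) primers and read on a HiSeq instrument, per the labels' protocols. The authors used bcl2fastq 1.8.3, TopHat and Cufflinks on mm10, per the submitters' processing notes, and deposited FPKM with an interval, and coverage, a signal not scaled to depth, for 63241 transcripts per library, per the file headers. The files hold no gene names. Each transcript was matched by span and spliced length to GENCODE M21 (GRCm38), which placed 53323 transcripts with 93.9% of the FPKM in 25273 genes, and FPKM was summed per gene without further scaling. Whether strand was used is not stated in the sources used.

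Genes averaging 1 FPKM or more (10255) entered limma 3.58.1 in R 4.3.3 as log2(FPKM + 1) (lmFit, eBayes with trend, two-sided, Benjamini-Hochberg adjusted over all of them, threshold 0.05) and no covariate. This pseudocount understates changes at low level. Depth was derived from the deposited intervals, and coverage per FPKM differed at most 1.28-fold between libraries. The matching and the fit were tested on simulated data. Members and lists were chosen with earlier results of these data known. Genes named from a list are those called, up to 6, and the 2 with the highest level, and from markers those with the highest level; others were chosen after their values were seen. Alternatives covered pseudocount, filter, scaling, variance trend, matching, replicate block and omitted libraries. A few genes that the naming rule covers are not reported here.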

Additional observations from a re-analysis of the deposited data

How the results depend on the processing

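Kcnn4, Slc14a1, Atp1b1 and Aqp3 kept a positive log2 difference under all 16 alternative settings and Fxyd3 a negative one. Omitting libraries could not reverse the sign for Kcnn4, Slc14a1 and Atp1b1, whose groups did not overlap. The filter, variance trend and replicate block settings leave a gene's difference itself unchanged. The kept signs are therefore a description only. Ranges were 3.59 to 4.01 for Kcnn4, 2.23 to 5.92 for Slc14a1, 0.67 to 0.87 for Atp1b1, 0.17 to 0.40 for Aqp3 and -0.32 to -0.05 for Fxyd3. Those of Kcnk1 (-0.08 to 0.01) and Atp1b3 (-0.17 to 0.10) crossed 0. Among all genes, 464 were higher and 256 lower. The counts became 273 and 168 with a filter at 5 FPKM, 137 lower with no filter, and 908 and 1385 without both libraries numbered 1, and they ranged from 202 to 533 and from 46 to 622 on leaving out 1 library. Omitting distal replicate 1 gave 622 lower genes, omitting proximal replicate 1 gave 548, and both counts dropped on omitting any of the other 4 libraries, to 202 to 256 higher and 46 to 74 lower. Of the list genes, 11 were higher and 0 lower (limma), with 7 higher at a filter of 5 FPKM and 6 lower without both libraries numbered 1, and with 4 to 15 higher and 0 to 5 lower on leaving out 1 library, the 5 lower without distal replicate 1. The cause was not tested, except that fewer genes enter at 5 FPKM. With the replicate number as a block, 880 genes were higher and 732 lower, and of the list genes 15 were higher and 2 lower. Libraries of the same number correlated in their deviations by 0.383, 0.045 and 0.286, and distal replicate 2 correlated better with proximal replicate 3 (0.131) than with its own number, so the numbers are not taken as pairs. Depth limits Slc14a1 and Aqp5 in distal libraries.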

Other observations

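The calcium signal to which Kcnn4 responds was examined through its own list. Of 17 tested genes for calcium entry, release and calmodulin, 1 passed as higher, 0 passed as lower and 16 did not pass (limma), a share near the 4.52% higher and 2.50% lower among all genes tested, with a median log2 fold change of 0.14. The higher gene was P2rx4, an ATP-gated cation channel, at 8.65, 9.86 and 10.3 FPKM in distal and 15.1, 14.8 and 15.9 FPKM in proximal libraries (limma, adjusted p = 0.0157). Its call was lost without distal replicate 2 or proximal replicate 2 or 3 (limma, adjusted p up to 0.071), where its log2 fold change was 0.64, 0.64 and 0.59 beside 0.62 with all libraries. P2ry2, a receptor for ATP and UTP, and Orai2, a store-operated calcium channel, had log2 fold changes of 0.63 and 0.79 and did not pass (limma, adjusted p = 0.0562 and 0.0793). The calmodulin gene Calm2 did not pass (limma, adjusted p = 0.561).

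Among 10 tested genes of the osmotic stress response, 1 passed as higher, 0 passed as lower and 9 did not pass (limma). Hspa4l, a heat shock protein of the HSP110 group, rose from 4.54, 4.66 and 5.15 to 10.8, 10.1 and 9.96 FPKM (log2 fold change 0.97 ± 0.11 SE, limma, adjusted p = 0.00271). Nfat5, the transcription factor of the response to high salt, had a log2 fold change of -0.01 (limma, adjusted p = 0.984), and Slc5a3, the inositol carrier it is known to induce, one of -0.60 (limma, adjusted p = 0.106). Hspa1b, an inducible heat shock gene, was at 874, 2750 and 2920 FPKM in distal and 777, 1010 and 1080 FPKM in proximal libraries, did not pass (limma, adjusted p = 0.2), and passed as lower without distal replicate 1 (limma, adjusted p = 0.00347). In the same libraries the dissociation and immediate early genes summed to 9160, 16000 and 16700 FPKM in distal and to 6570, 7460 and 8420 FPKM in proximal cells. Hspa1b is itself in this list, so the sum is not independent of it. Of the 14 tested genes of the list, 0 passed as higher, 2 passed as lower and 12 did not pass (limma, adjusted p under 0.05), beside 2.50% lower among all genes tested.

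Lrrc26, an auxiliary subunit of the Kcnma1 channel in secretory epithelia, had a listed level of 0 in each of the 3 distal libraries, against 2.89, 1.45 and 0.788 FPKM in proximal ones. Its mean was below 1 FPKM and it was not tested, and it was singled out after its values were seen.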
